A study of Homo sapiens with 18 samples.

Results

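The comparison described here sets 2 libraries of IMR-32 cells carrying SMARCA4-mAID and given ethanol against 2 libraries of parental IMR-32 cells given DMSO, 4 of the 18 libraries in the series. They were chosen by their labels, as the cells of each line that had received vehicle alone. The values therefore describe what the engineered line expressed differently without auxin. The level of SMARCA4 protein was not measured here. The series counted newly made RNA in the neuroblastoma lines IMR-32, KELLY and SK-N-DZ after inhibition or degradation of SMARCA4, with 2 libraries in each group. The SMARCA4-mAID cells had the genotype SMARCA4-mAID, in which SMARCA4 is fused to a mini auxin-inducible degron, and received ethanol in the volume used for 500 uM auxin. The parental cells had the genotype WT and received DMSO in the volume used for 1 uM BRM014, which blocks the ATPase activity of SMARCA4 and of its paralog SMARCA2. Both groups were grown in the same serum-containing medium and received 500 uM 4-thiouridine (4sU) for 2 h before harvest. Another 4 libraries, of SMARCA4-mAID cells with 500 uM auxin and of parental cells with 1 uM BRM014, gave a second reading of the difference between the lines in libraries that the first comparison did not use. That reading also differs by agent, auxin against BRM014, so line and agent cannot be told apart in it. The labels do not say whether the engineered line is 1 clone, which alleles or which end of the protein carry the tag, what drives the auxin receptor, or whether replicate libraries stem from separate cultures. Line, vehicle and any difference in culture therefore cannot be told apart, and the p-values rest on a spread between libraries that may be technical.

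SMARCA4, also called BRG1, is an ATPase of the BAF (SWI/SNF) complexes, which slide and evict nucleosomes and so open promoters and enhancers to transcription factors. A degron tag lets an ubiquitin ligase bind the fused protein once auxin is added, so that the protein can be removed quickly, and cells with vehicle serve as the control for that removal. IMR-32 is an established neuroblastoma line with amplified MYCN. Such cells resemble sympathetic neuroblasts and are held in an adrenergic state by a circuit of transcription factors that includes HAND2, GATA3 and ISL1.

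Gene counts were 1505905 and 1638317 in the SMARCA4-mAID libraries with ethanol, against 1438139 and 1148208 in the parental libraries with DMSO, and 14654 and 14572 against 14516 and 14513 genes were detected. Reads assigned to no gene made up 47.6% and 47.7% of the total in SMARCA4-mAID libraries, against 50.8% and 53.5% in parental ones. Labelled libraries of the series held 724913 to 1740475 counts, and the 2 unlabelled KELLY libraries held 5395 and 4432. Across the 12853 genes tested, mean log2 CPM (counts scaled to a common library size) of the engineered line had a Pearson correlation of 0.955 with parental IMR-32, 0.795 with KELLY and 0.792 with SK-N-DZ. These coefficients are over genes, which are not independent replicates. Of 74 genes at 10 CPM or more in parental IMR-32 and under 1 CPM in both other lines, 54 were at 10 CPM or more in the engineered line and 1 was under 1 CPM. Of 47 genes under 1 CPM in parental IMR-32 and at 10 CPM or more in both other lines, 1 reached 10 CPM in the engineered line.

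Markers of noradrenergic neuroblasts, with 10 of 10 tested, summed to 3046 and 3038 CPM in SMARCA4-mAID libraries, against 3617 and 3399 CPM in parental ones. The sums were carried by markers other than TH and DBH, which were near 0 in both groups. TH had 0 and 0 counts in SMARCA4-mAID libraries, against 0 and 1 in parental ones, and DBH 0 and 0, against 3 and 4. DBH, ELAVL4 and HAND2 were the 3 of 10 called lower and 0 were called higher, against 3.49% and 2.67% of all genes tested. DBH and HAND2 were not called by DESeq2. Markers of mesenchymal cells or fibroblasts summed to 305 and 346 CPM in SMARCA4-mAID libraries and 468 and 410 CPM in parental ones, none of the 7 tested was called, and COL1A2, LUM, DCN and PRRX1 had 0 counts in all 4 libraries. Schwann or glial markers summed to 4.13 and 1.89 CPM, against 5.15 and 1.83 CPM, with S100B, SOX10, FOXD3 and GFAP among those at 0 counts in all 4. Epithelial markers summed to 0 CPM in both SMARCA4-mAID libraries, against 0 and 0.915 CPM in parental ones. Blood and immune markers summed to 2.07 and 5.03 CPM, against 1.47 and 0 CPM. In these bulk libraries, fewer cells of a type and less RNA per cell cannot be told apart.

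SMARCA4 itself, which lies on chromosome 19 from 10960825 to 11079426 on the plus strand (GENCODE 29, GRCh38), was more abundant in the engineered line. It had 1091 and 1379 counts in SMARCA4-mAID cells with ethanol and 123 and 117 counts in parental cells with DMSO. The groups were far apart, and neither line came near the other. In CPM, SMARCA4 averaged 809 ± 81.8 in SMARCA4-mAID cells and 98.8 ± 11.8 in parental cells (SD, n = 2 each). The log2 fold change was 3.04 (SE 0.14), or 8.23-fold, with an adjusted p of 3.01e-33 by the quasi-likelihood test of edgeR. Leaving out 1 library at a time kept it between 2.92 and 3.16. In the second reading, SMARCA4 had 887 and 942 counts in SMARCA4-mAID cells with auxin, against 55 and 59 in parental cells with BRM014, a log2 fold change of 2.95 (adjusted p = 6.67e-29). Mean levels in vehicle-treated KELLY and SK-N-DZ cells were 109 and 154 CPM. Whether the counts in the engineered line came from the endogenous gene or from sequence of the construct was not tested. The ATPase SMARCA2, which can take the place of SMARCA4 in BAF complexes, had 13 and 26 counts in SMARCA4-mAID cells, against 27 and 18 counts in parental cells, and was not called (adjusted p = 0.824).

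None of the genes beside SMARCA4 was called, though several had few counts, so a moderate difference could be missed. Of the 10 nearest tested genes, 5 on each side, 0 were called at an adjusted p below 0.05, their log2 fold changes lay between -0.54 and 1.64, and the smallest adjusted p was 0.355, of YIPF2. YIPF2 had 11 and 13 counts in SMARCA4-mAID cells, against 3 and 3 counts in parental cells. CARM1, an arginine methyltransferase upstream of SMARCA4, had 47 and 65 counts in SMARCA4-mAID cells, against 35 and 36 counts in parental cells, with a log2 fold change of 0.33 (adjusted p = 0.717). DNM2, TMED1 and YIPF2 on one side and SPC24, RAB3D and TMEM205 on the other overlap a neighbouring gene, so their counts are uncertain.

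**Figure D1:**
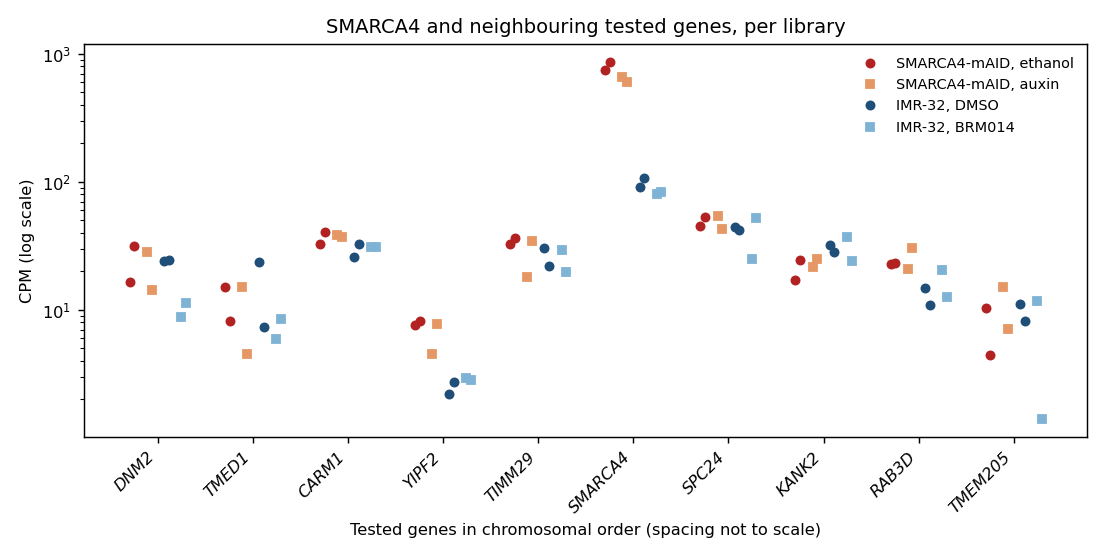
Level in CPM (log scale) of SMARCA4 and 9 of its 10 nearest tested genes, in chromosomal order with spacing not to scale; each point is 1 library of SMARCA4-mAID cells with ethanol or auxin, or of parental IMR-32 cells with DMSO or BRM014. SMARCA4 is separated by line, at a mean of 809 CPM with ethanol against 98.8 CPM with DMSO, while none of the 10 neighbours was called.

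Across the transcriptome, 343 genes were called higher and 449 lower in the engineered line, which are 2.67% and 3.49% of the 12853 tested and together 792 genes or 6.16%. At an unadjusted p below 0.05 there were 2201. The median log2 fold change of all tested genes was 0. With a library left out, 485 genes were called without SMARCA4-mAID replicate 1, 372 without SMARCA4-mAID replicate 2, 421 without parental replicate 1 and 441 without parental replicate 2, and 444, 361, 390 and 410 of these genes, in the same order of fits, were among the 792. For scale, vehicle-treated KELLY and SK-N-DZ cells, which come from different patients, differed at 4091 genes or 31.8%, with 15.2% higher and 16.6% lower in KELLY. In the second reading, SMARCA4-mAID cells with auxin against parental cells with BRM014, 1756 genes or 13.7% were called, 818 higher (6.36%) and 938 lower (7.3%). The 2 comparisons share no library, and 456 genes were called in the same direction in both, 181 higher and 275 lower, which is 57.6% of the genes called with vehicle and 26.0% of those called with auxin and BRM014. A further 11 genes were called in opposite directions. The change in the line difference between these conditions was tested too, and 250 genes or 1.95% passed.

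Transcripts of chromosome 6 were lower along its length in the engineered line. Of 588 tested genes on it, 139 (23.6%) were called lower and 1 higher, against a background of 3.49% lower among all genes tested. These 139 made up 31.0% of all lower calls, whereas chromosome 6 held 4.57% of tested genes. In all, 501 of the 588 (85.2%) had a log2 fold change below 0, and in 373 (63.4%) both SMARCA4-mAID libraries lay below both parental libraries in CPM, against 23.8% of all tested genes. The median log2 fold change was -0.53, a level 69.2% of the parental one. Of the 172 chromosome 6 genes with a mean count of 100 or more, 164 were below 0 and 100 were called lower, with a median of -0.56.

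Each SMARCA4-mAID library showed the chromosome 6 difference separately. Against the parental DMSO mean, the chromosome median was -0.53 and -0.52 in the SMARCA4-mAID libraries with ethanol. It was -0.44 and -0.46 in SMARCA4-mAID libraries with auxin, and 0.11 and 0.09 in parental libraries with BRM014. The 2 parental DMSO libraries were set against each other instead, which gave -0.03 and 0.03, the same difference with its sign reversed. SMARCA4-mAID libraries thus lay below parental ones under either treatment. Auxin against BRM014 gave a chromosome 6 median of -0.60, with 163 genes called lower and 1 higher. The medians of the 22 other chromosomes analysed lay between -0.09 and 0.18. In the 13 bins of 10 Mb with at least 20 tested genes on chromosome 6, the median ran from -0.67 to -0.46, and the lowest bin on any other chromosome was at -0.35. Leaving out any 1 of the 4 libraries left 67 to 91 chromosome 6 genes called lower, with 67 without SMARCA4-mAID replicate 2. DNA copy number was not measured in these files.

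**Figure D2:**
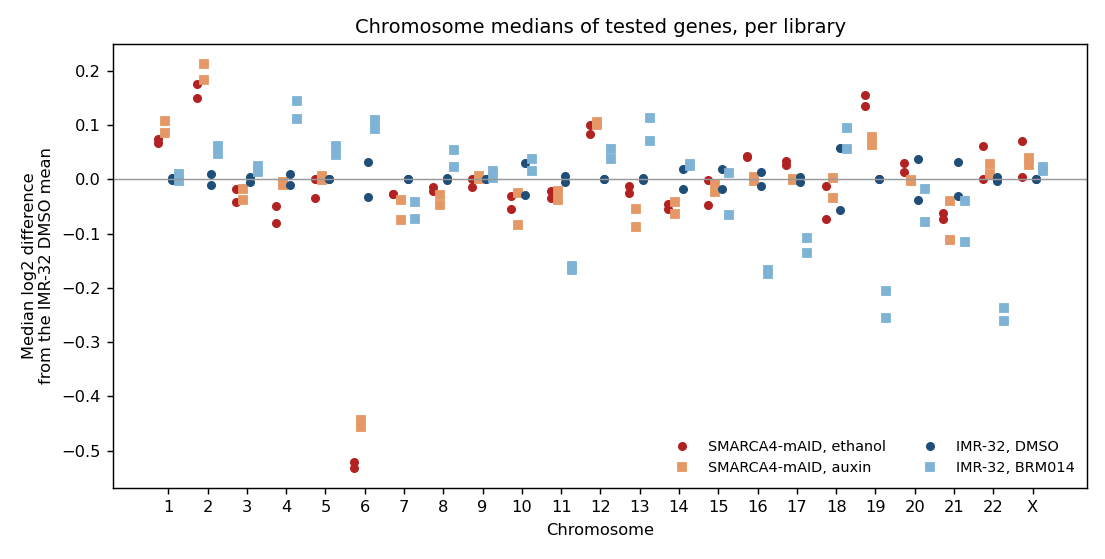
Median log2 difference from the parental DMSO mean over the tested genes of each chromosome, 1 point per library, for SMARCA4-mAID cells with ethanol or auxin and parental IMR-32 cells with DMSO or BRM014. On chromosome 6 the SMARCA4-mAID libraries lie at -0.53 and -0.52 with ethanol and -0.44 and -0.46 with auxin, below every other chromosome.

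A stretch of the short arm of chromosome 1 went the other way. Among running medians over 25 tested genes, those of 0.4 or more formed an unbroken run from RPS6KA1 to STIL, 26.5 to 47.3 Mb (chr1:26529761-47250139, GRCh38, the lowest coordinate of each of these genes). Of 210 tested genes in it, 59 (28.1%) were called higher and 0 lower, and the median log2 fold change was 0.71, or 1.64-fold. The run was chosen on these values, so its counts are a description. In 151 of the 210 (71.9%), both SMARCA4-mAID libraries lay above both parental libraries, against 23.1% of all tested genes. The median difference from the parental DMSO mean was 0.67 and 0.66 in the SMARCA4-mAID libraries with ethanol, 0.65 and 0.59 with auxin, and -0.30 and -0.15 in parental libraries with BRM014. Auxin against BRM014 called 76 of the 210 genes higher and 0 lower, with a median of 0.87. Fits without 1 library called between 27 (without parental replicate 1) and 43 genes of the run higher. ARID1A, the BAF subunit that binds DNA through its ARID domain, lies in this run, as does the Polycomb subunit PHC2.

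On chromosome 5 a short run from WDR55 to PCDH1 (140.7 to 141.9 Mb) had a median of 1.48 over 45 tested genes, 6 of them called higher. Most of these genes are clustered protocadherins, and the 10 others had a median of 0.07. This run too was chosen on these values. Other such runs held fewer genes. Among them were 26 genes on chromosome 2 (219.2 to 224.5 Mb, median 0.51) and 18 on chromosome 11 (64.4 to 65.1 Mb, median 0.66). Chromosome 16 had 25 (29.4 to 30.4 Mb, median 0.47) and chromosome 17 had 26 (7.5 to 8.2 Mb, median 0.46). Of 854 tested genes on chromosome 2, 55 (6.44%) were called higher and 12 (1.41%) lower, against 2.67% and 3.49% of all genes tested. The chromosome 2 median was 0.18. Of 236 bins of 10 Mb in all, the 13 on chromosome 6 were at -0.4 or lower and 4 were at 0.4 or higher, namely 2 in the chromosome 1 run, 1 at the protocadherins and 1 on chromosome 2 from 210 to 220 Mb. Outside chromosome 6, 337 genes were called higher and 304 lower of 11906 placed on a chromosome. Fold changes also moved with base composition, with medians of -0.10, -0.04, 0.05 and 0.15 over 4 equal classes from low to high GC content, and of 0.06, 0.01, -0.01 and -0.06 over 4 equal classes from short to long transcripts. With an offset for GC content and length, 128 chromosome 6 genes were called lower and 56 genes of the chromosome 1 run higher.

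**Figure D3:**
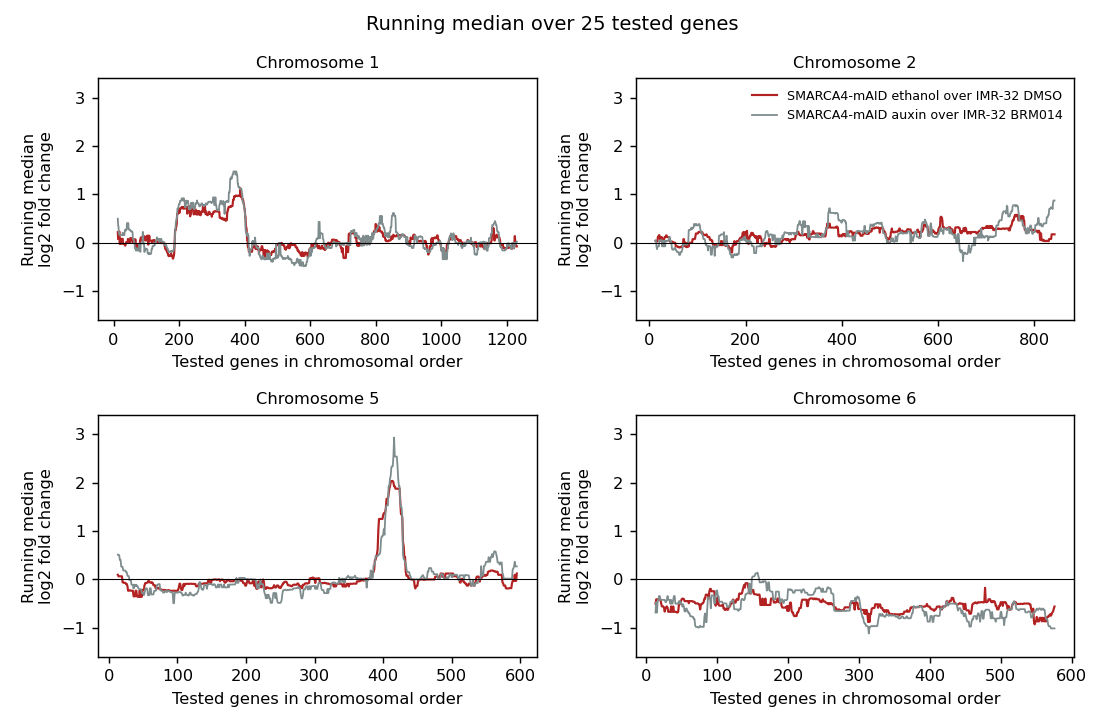
Running median log2 fold change over 25 consecutive tested genes along chromosomes 1, 2, 5 and 6, for SMARCA4-mAID with ethanol over IMR-32 with DMSO and for SMARCA4-mAID with auxin over IMR-32 with BRM014. Both lines stand above 0 over the same stretch of chromosome 1, where the medians of the run are 0.71 and 0.87, peak at the protocadherins on chromosome 5 and lie below 0 along most of chromosome 6.

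Beyond these regions, single genes spread over the genome differed by much more. The 15 highest and the 15 lowest fold changes among called genes, with no overlap between the libraries of the groups and with 50 or more counts on average where the gene was higher, are named as a description. None of the highest and 3 of the lowest lay on chromosome 6. Of the 30, 27 remained called in each of the 4 fits without 1 library, and 28 were called in the same direction with auxin against BRM014. The 5′ ends of 3 of these genes are shown, because they had few counts of labelled RNA in one line. INSM2 was named as a gene with at most 3 counts over both libraries of one group, and SEMA5A and ZNF239 were chosen after their values were seen. The sequences are from RefSeq (GRCh38.p14), 250 bases before to 50 bases after the annotated start, in the direction of the gene, with each CG dinucleotide in capitals. INSM2 lies at chr14:35533914-35534213 on the plus strand, SEMA5A at chr5:9546026-9546325 on the minus strand and ZNF239 at chr10:43574567-43574866 on the minus strand. FAM111B was not in the sequence table.
INSM2: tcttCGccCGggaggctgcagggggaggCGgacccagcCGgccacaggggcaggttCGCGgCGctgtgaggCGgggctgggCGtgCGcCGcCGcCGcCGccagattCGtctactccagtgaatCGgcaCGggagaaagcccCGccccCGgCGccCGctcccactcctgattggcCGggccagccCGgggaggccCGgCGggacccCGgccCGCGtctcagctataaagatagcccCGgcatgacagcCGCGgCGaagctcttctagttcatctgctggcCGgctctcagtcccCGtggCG
SEMA5A: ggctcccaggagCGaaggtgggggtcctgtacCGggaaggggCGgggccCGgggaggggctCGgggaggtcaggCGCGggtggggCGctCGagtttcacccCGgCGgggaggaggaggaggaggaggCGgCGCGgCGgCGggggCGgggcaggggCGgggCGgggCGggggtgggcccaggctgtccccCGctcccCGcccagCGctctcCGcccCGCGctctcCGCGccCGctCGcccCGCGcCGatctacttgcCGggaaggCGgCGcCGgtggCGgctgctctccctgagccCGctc
ZNF239: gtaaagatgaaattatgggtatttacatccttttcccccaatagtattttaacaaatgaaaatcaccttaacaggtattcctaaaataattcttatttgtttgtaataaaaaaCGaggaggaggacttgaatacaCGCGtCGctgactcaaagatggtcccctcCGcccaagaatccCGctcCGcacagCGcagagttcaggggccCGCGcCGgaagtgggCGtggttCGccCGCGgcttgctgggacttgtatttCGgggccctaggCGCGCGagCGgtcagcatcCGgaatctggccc
The INSM2 window holds 35 CG dinucleotides, the SEMA5A window 39 and the ZNF239 window 21, against a median of 14 over 35116 such promoters. As many or more were found in 14.1%, 8.71% and 39.5% of those promoters for INSM2, SEMA5A and ZNF239. Methylation was not measured in these files.

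Among the genes higher in the engineered line, FAM111B, which encodes a serine protease, had 237 and 258 counts in SMARCA4-mAID cells, against 11 and 7 counts in parental cells. Its log2 fold change was 4.46 (SE 0.32, adjusted p = 7.31e-21), and vehicle-treated KELLY and SK-N-DZ cells had means of 154 and 82.3 CPM. The zinc finger gene ZNF239 had 101 and 93 counts, against 6 and 1 counts, for a log2 fold change of 4.45 (SE 0.50, adjusted p = 2.98e-11) that lay between 3.83 without parental replicate 2 and 5.99 without parental replicate 1. The groups were far apart for both genes. RTL5, derived from the gag gene of a retrotransposon, had 215 and 204 counts, against 13 and 10 counts (log2 fold change 3.87, adjusted p = 3.1e-17). TRIM71, a let-7 target and RNA-binding ubiquitin ligase of early embryonic cells, had 187 and 209 counts, against 25 and 18 counts (log2 fold change 2.89, adjusted p = 4.66e-16). NEAT1, the long noncoding RNA that builds paraspeckles, had 188 and 243 counts, against 39 and 21 counts (log2 fold change 2.53, adjusted p = 6.74e-19). In each of these the lower SMARCA4-mAID library exceeded the higher parental one several times over. NPTX1, a neuronal pentraxin that clusters glutamate receptors, had 1029 and 1511 counts, against 247 and 131 counts (log2 fold change 2.45, SE 0.14, adjusted p = 2.16e-27), and was at 0 CPM in vehicle-treated KELLY.

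The transcription factor EBF2 had 76 and 73 counts in SMARCA4-mAID cells, against 8 and 9 counts in parental cells (log2 fold change 2.80, adjusted p = 9.04e-06), and was at 0 CPM in vehicle-treated KELLY and SK-N-DZ. ZYG11A, a substrate receptor of a cullin ubiquitin ligase, had 49 and 51 counts, against 9 and 2 counts, for a log2 fold change of 2.87 (adjusted p = 0.000303) that was 4.10 without parental replicate 1. SPIN3, of the spindlin family of histone readers, had 135 and 148 counts, against 18 and 8 counts (log2 fold change 3.13), but overlaps NBDY. MSL3P1 (107 and 107 counts, against 3 and 5) and DUSP5P1 (99 and 113 counts, against 20 and 10) are pseudogenes whose reads could belong to their parent genes. The other 3 depended on single libraries. KCNMB3, a regulatory subunit of BK potassium channels that overlaps PIK3CA, had 49 and 59 counts, against 4 and 6 counts, with a log2 fold change of 3.08 that was 2.67 (adjusted p = 0.0519) without parental replicate 1. ZNF439, a zinc finger gene, had 67 and 43 counts, against 3 and 10 counts, with a log2 fold change of 2.73 that was 3.99 without parental replicate 2 and 1.98 (adjusted p = 0.0884) without parental replicate 1. EGFR, the epidermal growth factor receptor, had 40 and 62 counts, against 9 and 7 counts, with a log2 fold change of 2.34 (adjusted p = 0.00372) that was called in 1 of 4 fits without a library and was 2.09 (adjusted p = 0.0988) without SMARCA4-mAID replicate 2. With auxin against BRM014, EGFR (6 and 10 counts, against 0 and 2) and DUSP5P1 (103 and 128 counts, against 21 and 41) were not called, with adjusted p of 0.248 and 0.0957. Of the 14 genes other than SMARCA4, 9 had a higher mean in KELLY than in parental IMR-32 and 11 had a higher mean in SK-N-DZ. The genes were chosen partly for a low parental level, so higher means in other lines are partly built into the choice. No share over all genes was taken, so these counts are a description.

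Among the genes lower in the engineered line, INSM2, a zinc finger factor related to INSM1, had 2 and 1 counts in SMARCA4-mAID cells, against 99 and 45 counts in parental cells. The parental level was 59.5 times the level in SMARCA4-mAID cells, with an exact binomial 95% interval of 19.96 to 292 that covers counting error only (adjusted p = 7.67e-23). SEMA5A, a transmembrane semaphorin that guides axons, had 4 and 9 counts, against 149 and 153 counts (log2 fold change -4.84, SE 0.43, adjusted p = 6.85e-16). The groups did not come near each other for either gene. MSX2, a homeobox factor of the neural crest, had 8 and 3 counts, against 161 and 94 counts (log2 fold change -4.78, SE 0.51, adjusted p = 3.39e-12). TBX3, a T-box repressor, had 33 and 19 counts, against 223 and 171 counts (log2 fold change -3.22, SE 0.18, adjusted p = 7.62e-28). FOXI3, a forkhead factor of cranial placodes, had 3 and 8 counts, against 58 and 56 counts (log2 fold change -3.67, adjusted p = 0.000362). These 3 developmental factors were low in both SMARCA4-mAID libraries. GATA2, a zinc finger factor of the sympathetic lineage, had 10 and 15 counts, against 107 and 85 counts (log2 fold change -3.24, SE 0.24, adjusted p = 1.4e-20). CREB5, a leucine zipper factor, had 22 and 18 counts, against 150 and 101 counts (log2 fold change -2.93, adjusted p = 3.1e-06).

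HDAC9, a class IIa histone deacetylase, had 9 and 20 counts in SMARCA4-mAID cells, against 198 and 197 counts in parental cells (log2 fold change -4.08, SE 0.27, adjusted p = 7.67e-23). FAM208A, also called TASOR, the scaffold of the HUSH complex that silences retroelements, had 11 and 31 counts, against 105 and 141 counts (log2 fold change -2.88, adjusted p = 8.39e-14), and overlaps CCDC66. Both are chromatin regulators, and in both the highest SMARCA4-mAID library was well under the lowest parental one. RGS4, which shortens signalling by G proteins, had 14 and 9 counts, against 166 and 142 counts (log2 fold change -4.04, SE 0.22, adjusted p = 4.69e-29). NXPH1, a secreted ligand of neurexins, had 12 and 4 counts, against 119 and 53 counts (log2 fold change -3.67, adjusted p = 1.23e-09). LRRN3, a leucine-rich repeat membrane protein of neurons, had 24 and 54 counts, against 221 and 193 counts (log2 fold change -2.72, SE 0.19, adjusted p = 2.66e-21). The 3 on chromosome 6 fell well past that chromosome's median of -0.53. They were the ephrin receptor EPHA7 (7 and 2 counts, against 88 and 48, log2 fold change -4.16), the gap junction protein GJA1 or connexin 43 (8 and 5 counts, against 82 and 78, log2 fold change -3.91), and the transcriptional coactivator EYA4 (43 and 62 counts, against 295 and 293, log2 fold change -2.81), which overlaps TARID. Without SMARCA4-mAID replicate 1, the log2 fold change of MSX2 was -5.67, of EPHA7 -5.32 and of NXPH1 -4.69. Without SMARCA4-mAID replicate 2 it was -4.17 for MSX2, -3.46 for EPHA7, -3.01 for NXPH1, -5.43 for SEMA5A, -4.67 for HDAC9, -4.42 for FOXI3, -3.71 for FAM208A and -3.33 for LRRN3.

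**Figure D4:**
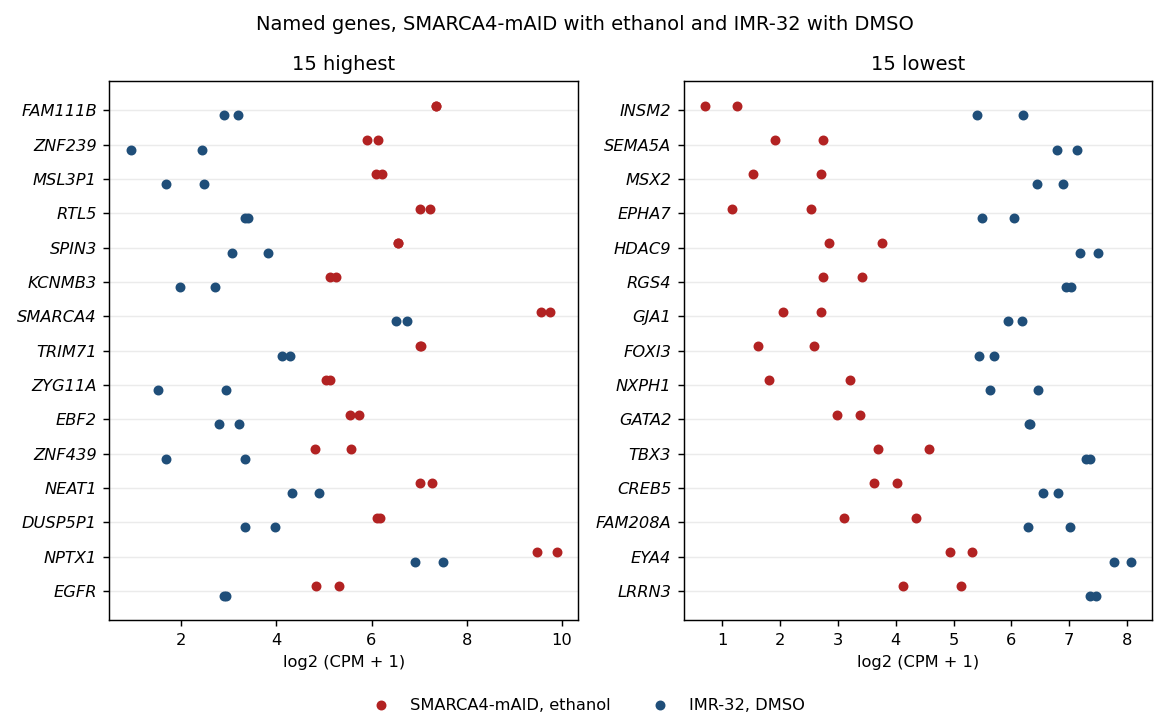
Level of the 15 highest and 15 lowest named genes as log2 of CPM plus 1, with 2 points per group, SMARCA4-mAID with ethanol and IMR-32 with DMSO; italic names are gene symbols. The groups do not overlap for any gene, as the naming rule required, and INSM2 had 2 and 1 counts against 99 and 45.

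Adrenergic transcription regulators did not move as 1 group, with some factors not called and several others lower. Of 32 tested, 4 (12.5%) were called higher and 10 (31.2%) lower, against 2.67% and 3.49% of all genes tested, with a median of -0.26 against 0 over all genes. With 1 library left out, 6 to 8 were called lower, the fewest without parental replicate 1, and DESeq2 called 7. The homeobox factor PHOX2A had 471 and 432 counts in SMARCA4-mAID cells, against 392 and 290 counts in parental cells (log2 fold change 0.10, adjusted p = 0.748), and GATA3 had 768 and 891 counts, against 841 and 599 counts (log2 fold change -0.10, adjusted p = 0.695). In CPM the groups overlapped for both. ISL1, a LIM homeobox factor, had 190 and 210 counts, against 644 and 467 counts (log2 fold change -1.78, SE 0.12, adjusted p = 7.67e-23). MEIS2, a TALE homeobox factor, had 21 and 12 counts, against 48 and 49 counts (log2 fold change -1.86, adjusted p = 2.06e-06). ISL1, MEIS2, GATA2 and INSM2 stayed called in each fit without 1 library.

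Smaller differences in this list depended on single libraries. EBF3 (log2 fold change -0.51) was -0.37 with adjusted p = 0.177 without SMARCA4-mAID replicate 1, and without parental replicate 1 SIX3 (-0.60) was -0.22 with adjusted p = 0.727 and HAND1 (-0.65) was -0.49 with adjusted p = 0.425. HAND2 (-0.31, adjusted p = 0.0449) and TBX2 (-0.38, adjusted p = 0.0351) were called in 0 of 4 fits without a library, and were at -0.25 and -0.29 with adjusted p of 0.369 and 0.384 without parental replicate 1. HAND2 also overlaps its antisense gene HAND2-AS1. Among the higher genes, EYA1, a transcriptional coactivator with phosphatase activity, had 433 and 416 counts, against 137 and 126 counts (log2 fold change 1.38, SE 0.15, adjusted p = 1.99e-12), and the Kruppel-like factor KLF7 had 1642 and 1707 counts, against 1026 and 887 counts (log2 fold change 0.49, adjusted p = 8.14e-05). Both stayed called without any 1 library. INSM1, the relative of INSM2, had 698 and 744 counts, against 351 and 368 counts (log2 fold change 0.68, adjusted p = 0.000148), and was at 0.49 with adjusted p = 0.0926 without parental replicate 1. FOXM1 (0.61, adjusted p = 0.0471) was called in 0 of 4 such fits, with adjusted p = 0.329 without parental replicate 2, and was not called with the GC and length offset (adjusted p = 0.129).

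**Figure D5:**
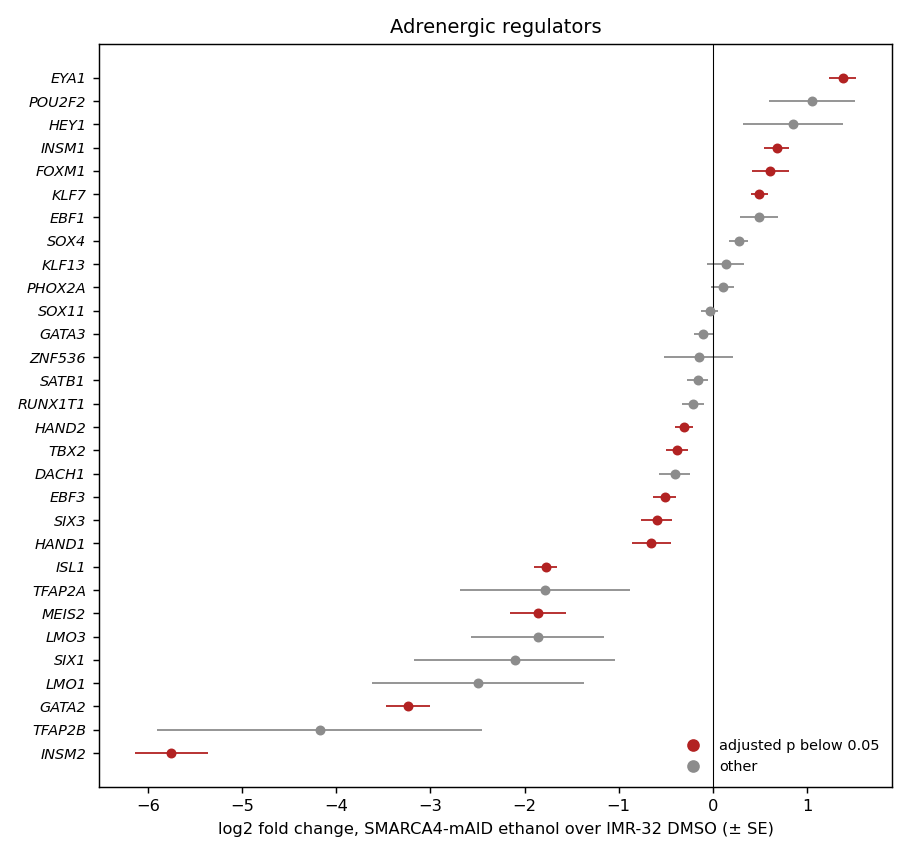
Log2 fold change of 30 of the 32 tested adrenergic regulators, SMARCA4-mAID with ethanol over IMR-32 with DMSO, with bars of 1 SE and the called genes in red. PHOX2A and GATA3 lie at 0.10 and -0.10, and ISL1, MEIS2, GATA2 and INSM2 lie to the left at -1.78 or lower.

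Of 26 tested noradrenergic function genes, 2 (7.69%) were called higher and 2 (7.69%) lower, against 2.67% and 3.49% of all genes, and the median was -0.24. These counts were 0 to 2 higher (0 without parental replicate 1) and 1 to 3 lower without 1 library. The alpha-2A adrenoceptor gene ADRA2A had 14 and 4 counts in SMARCA4-mAID cells, against 46 and 47 counts in parental cells, with a log2 fold change of -2.66 (SE 0.45, adjusted p = 6.57e-06) that was -3.85 without SMARCA4-mAID replicate 1 and -1.95 without SMARCA4-mAID replicate 2. DBH, which makes noradrenaline from dopamine, had 0 and 0 counts, against 3 and 4 counts, at least 2.89-fold lower (adjusted p = 0.032), was called in 0 of 4 fits without a library (adjusted p = 0.245 without SMARCA4-mAID replicate 2) and overlaps DBH-AS1. TH, the rate-limiting enzyme of catecholamine synthesis, had 0 and 0 counts, against 0 and 1 counts. Both genes were at the limit of this depth. GFRA1, a receptor for glial-derived neurotrophic factor, had 305 and 467 counts, against 167 and 184 counts (log2 fold change 0.80, adjusted p = 0.00698), and was at 0.56 with adjusted p = 0.354 without SMARCA4-mAID replicate 2. The 2 called lower in this list were ADRA2A and DBH. Outside the list, the neuroblast marker ELAVL4, an RNA-binding protein of neurons, had 559 and 573 counts, against 785 and 708 counts (log2 fold change -0.72, SE 0.10, adjusted p = 5.73e-08).

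Of 42 tested axon guidance genes, 1 (2.38%) was called higher and 6 (14.3%) lower, against 2.67% and 3.49% over the whole table, with a median of -0.15, and 5 or 6 were called lower without 1 library. Besides SEMA5A and EPHA7, the ephrin receptor EPHA5 had 0 and 0 counts in SMARCA4-mAID cells, against 34 and 23 counts in parental cells, at least 23.6-fold lower. UNC5C, a netrin receptor that mediates repulsion, had 28 and 35 counts, against 167 and 149 counts (log2 fold change -2.64, SE 0.25, adjusted p = 1.47e-14). SLIT2, a secreted repellent, had 9 and 16 counts, against 72 and 25 counts, with a log2 fold change of -2.22 (adjusted p = 0.000218) that was -1.47 with adjusted p = 0.178 without parental replicate 1. The 2 neuropilins, co-receptors for semaphorins, moved in opposite directions. NRP1 had 204 and 172 counts, against 293 and 249 counts (log2 fold change -0.84, adjusted p = 0.000242, and 0.0791 without SMARCA4-mAID replicate 2). NRP2 had 282 and 304 counts, against 161 and 115 counts (log2 fold change 0.78, adjusted p = 0.000435).

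Of 33 tested adhesion genes of neurons, 2 (6.06%) were called higher and 7 (21.2%) lower, against a background of 2.67% and 3.49%, with a median of -0.25, but no more than 2 stayed lower in any fit without 1 library. CDH7, a type II cadherin, had 218 and 167 counts in SMARCA4-mAID cells, against 55 and 36 counts in parental cells (log2 fold change 1.79, SE 0.29, adjusted p = 3.79e-06), and was called without any 1 library. CADM1, an immunoglobulin-type adhesion molecule, had 54 and 38 counts, against 81 and 98 counts (log2 fold change -1.28, adjusted p = 0.00137, and 0.124 without SMARCA4-mAID replicate 2). NCAM2 had 0 and 3 counts, against 21 and 5 counts, and the parental level was 10.7 times the level in SMARCA4-mAID cells (95% interval 3.29 to 55.5, adjusted p = 0.0128, and 0.48 without parental replicate 1).

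Clustered protocadherins had higher summed counts in the engineered line. These cell-surface cadherins are encoded side by side on chromosome 5 in the alpha, beta and gamma clusters, and each neuron uses a small random set of them as an identity label. Their summed counts were 930 and 957 in SMARCA4-mAID cells, against 247 and 202 in parental cells, or 641 and 602 CPM against 182 and 185 CPM. The sums were 712 and 610 CPM with auxin, against 221 and 152 CPM with BRM014. Libraries of the engineered line thus exceeded parental ones under either treatment. Of the 53 listed genes, 46 had a higher mean CPM in the engineered line, 5 a lower one and 2 had 0 counts. Of the 34 tested, 5 (14.7%) were called higher and 0 lower, against 2.67% and 3.49% of all genes, with a median of 1.82, and 3 or 4 were called higher without 1 library, the fewest without parental replicate 2. PCDHB2 had 105 and 105 counts, against 22 and 17 counts (log2 fold change 2.12, adjusted p = 7.71e-05), and PCDHB16 had 129 and 123 counts, against 23 and 27 counts (log2 fold change 2.01, adjusted p = 2.61e-05). Members of a cluster are near copies of each other and gamma transcripts share exons, so the assignment to single members is uncertain.

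Genes of ion channels and vesicles showed no common direction, with 3 of 59 (5.08%) called higher, 5 (8.47%) lower and a median of 0.12, against 2.67% and 3.49% called among all genes. The counts were 0 to 2 higher (0 without parental replicate 2) and 2 to 4 lower (2 without SMARCA4-mAID replicate 2) without 1 library. The sodium channel gene SCN9A had 12 and 15 counts in SMARCA4-mAID cells, against 48 and 39 counts in parental cells (log2 fold change -1.99, adjusted p = 0.00122). SYN2, a synapsin of vesicle pools, had 353 and 372 counts, against 584 and 402 counts (log2 fold change -0.74, adjusted p = 3.91e-05). Both stayed called without any 1 library. CPLX2, a complexin that controls vesicle fusion, had 504 and 627 counts, against 338 and 231 counts (log2 fold change 0.69, adjusted p = 0.000713, and 0.064 without parental replicate 2).

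Some genes were at or near 0 counts in 1 of the lines. Among called genes, 44 had at most 3 counts over both SMARCA4-mAID libraries, 24 of them 0, and 15 had at most 3 counts over both parental libraries, 6 of them 0. Of the 44, 30 also had at most 3 counts with auxin, and 13 of the 15 had at least 10 counts with auxin. Folds against 0 counts were taken against 3 counts over the group. The zinc finger gene ZNF727 had 0 and 0 counts, against 42 and 39 counts, at least 33.5-fold lower. BMP7, a bone morphogenetic protein, had 0 and 0 counts, against 16 and 16 counts, at least 13.2-fold lower. TIGAR, a fructose bisphosphatase induced by p53, had 0 and 0 counts, against 8 and 15 counts, at least 9.51-fold lower. All 3 were at 0 in both SMARCA4-mAID libraries and were called without any 1 library. PERP, a membrane protein of desmosomes on chromosome 6, had 0 and 0 counts, against 26 and 26 counts, at least 21.5-fold lower (adjusted p = 0.000905, and 0.053 without SMARCA4-mAID replicate 2). POU3F2 or BRN2, a neural POU factor, had 3 counts over both libraries, against 48, and the parental level was 19.8 times the level in SMARCA4-mAID cells (95% interval 6.39 to 99.6). In the other direction, S1PR1, a receptor for sphingosine 1-phosphate, had 41 and 27 counts in SMARCA4-mAID cells, against 0 and 0 counts in parental cells, at least 18.3-fold higher, and 32 and 44 counts with auxin, against 0 and 0 with BRM014. The cancer-testis antigen gene PRAME had 22 and 24 counts, against 1 and 0 counts, a ratio of 37.1 (95% interval 6.33 to 1497). PTHLH, which encodes parathyroid hormone-related protein, had 16 and 24 counts, against 0 and 0 counts, at least 10.8-fold higher (adjusted p = 0.00698, and 0.144 without parental replicate 1).

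Of 12 tested genes of the 2p amplicon of IMR-32, 5 (41.7%) were called higher and 0 lower, against 2.67% higher and 3.49% lower over all genes, with a median of 0.26, and 1 to 3 without 1 library, the fewest without parental replicate 2. MYCN had 8515 and 9066 counts in SMARCA4-mAID cells, against 7211 and 5188 counts in parental cells, and its log2 fold change of 0.20 (SE 0.06, adjusted p = 0.032) was 0.13 with adjusted p = 0.491 without parental replicate 2 and was not called with the GC and length offset (adjusted p = 0.724). Reads of MYCN and its antisense gene MYCNOS cannot be told apart. ETAA1, an activator of the ATR checkpoint kinase, had 627 and 640 counts, against 340 and 280 counts (log2 fold change 0.72, adjusted p = 6.97e-05). Genes of this amplicon lie on chromosome 2 by definition, where 6.44% of tested genes were called higher and the median was 0.18. Of 27 tested BAF subunits, SMARCA4 itself and ARID1A (7.41%) were called higher, and ARID1B, BICRAL and PHF10 (11.1%), which all lie on chromosome 6, were called lower. ARID1A had 746 and 877 counts, against 522 and 337 counts (log2 fold change 0.62, SE 0.11, adjusted p = 2.05e-05). Its alternative partner ARID1B had 296 and 297 counts, against 435 and 298 counts (log2 fold change -0.60, adjusted p = 0.00106, and -0.48 with 0.115 without parental replicate 1). BICRAL was at -0.93 (adjusted p = 0.00297, and -0.55 with 0.358 without SMARCA4-mAID replicate 2) and PHF10 at -0.95 (adjusted p = 0.0159, and 0.191 without SMARCA4-mAID replicate 2). Of 18 Polycomb subunits, PHC2 (1.01, adjusted p = 0.00235, and 0.0656 without parental replicate 2) and CBX6 (0.71, adjusted p = 0.00248, and 0.43 with 0.325 without SMARCA4-mAID replicate 2) were called higher.

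Lists of growth and stress genes had 0 to 5 members called in a direction, to be read against 2.67% higher and 3.49% lower among all genes tested. Of 11 tested G1 regulators, 2 (18.2%) were called lower and stayed so without any 1 library. CCND1 or cyclin D1, which drives entry into the cell cycle, had 3153 and 3432 counts in SMARCA4-mAID cells, against 4326 and 3424 counts in parental cells (log2 fold change -0.54, SE 0.08, adjusted p = 2.8e-08). CDKN2C, an inhibitor of the kinases that bind cyclin D, had 147 and 158 counts, against 245 and 197 counts (log2 fold change -0.84, adjusted p = 0.000917). Of 23 p53 targets, 3 (13%) were called lower. CDKN1A or p21, which lies on chromosome 6, had 43 and 34 counts, against 135 and 90 counts (log2 fold change -1.84, SE 0.31, adjusted p = 6.6e-06), TIGAR was at 0 counts in the engineered line, and EDA2R (-1.20, adjusted p = 0.0487) had an adjusted p of 0.363 without parental replicate 1. Of 53 ribosomal protein genes, 5 (9.43%) were called higher and 0 lower with a median of 0.28, and 0 to 4 without 1 library, with 0 without SMARCA4-mAID replicate 2. Of 30 nucleolar MYC targets, 2 (6.67%) were called higher and 0 lower, with a median of 0.28, and 0 or 1 without 1 library. Both nucleolar genes called higher lie on chromosome 1 or 2. Of 18 heat shock genes, 1 (5.56%) was called higher and 2 (11.1%) lower, among which HSP90AB1 on chromosome 6 fell by 0.51 on the log2 scale with 1667 and 1711 counts, against 2175 and 1721 counts (adjusted p = 2.44e-06). Replication and E2F targets (1 higher and 1 lower of 30), mitotic genes (0 and 1 of 30), ATF4 and unfolded protein response genes (2 and 0 of 29), cholesterol synthesis genes (0 and 2 of 23) and ERK output genes (0 and 2 of 11) had at most 2 calls in a direction, and none of these lists kept more than 1 in a direction in any fit without 1 library. Of the 9 alcohol and aldehyde metabolism genes, 6 aryl hydrocarbon receptor targets, 14 immediate early genes and 33 matrix and adhesion genes tested, 0 were called by edgeR.

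Of 27 tested Wnt pathway genes, 3 (11.1%) were called lower and 0 higher, against 3.49% lower and 2.67% higher among all genes, which is also the background for the lists that follow, and 1 or 2 were lower without 1 library, the fewest without parental replicate 2. DKK1, a secreted Wnt antagonist, had 230 and 258 counts in SMARCA4-mAID cells, against 527 and 390 counts in parental cells (log2 fold change -1.22, SE 0.12, adjusted p = 1.8e-13), and was called without any 1 library. FZD1, a Wnt receptor, was at -1.17 (adjusted p = 0.000977, and -0.84 with 0.114 without SMARCA4-mAID replicate 1), and SFRP1, another secreted antagonist, at -0.70 (adjusted p = 0.0162, and 0.206 without parental replicate 1). Of 26 BMP and TGF-beta pathway genes, 4 (15.4%) were called lower and 0 higher, and 2 to 4 were lower without 1 library, the fewest without SMARCA4-mAID replicate 2. Besides BMP7 these included ID4 on chromosome 6, an inhibitor of helix-loop-helix factors, with 37 and 30 counts, against 77 and 72 counts (log2 fold change -1.46, adjusted p = 0.000303), and SMAD9, a BMP signal transducer, with 1176 and 1122 counts, against 1561 and 1121 counts (log2 fold change -0.52, adjusted p = 6.86e-05, and 0.0512 without SMARCA4-mAID replicate 2). SKIL, a corepressor of SMAD proteins, was at -0.39 (adjusted p = 0.00147, and 0.252 with the GC and length offset). Of 20 imprinted genes, 2 (10%) were called higher and 1 (5%) lower. The retrotransposon-derived PEG10, which overlaps SGCE, had 573 and 570 counts, against 234 and 193 counts (log2 fold change 1.11, SE 0.13, adjusted p = 5.74e-11). MEST, which overlaps COPG2, had 74 and 48 counts, against 19 and 13 counts (log2 fold change 1.63, adjusted p = 0.0033, and 1.23 with 0.171 without SMARCA4-mAID replicate 1). The long noncoding RNA MEG3 had 16 and 18 counts, against 56 and 35 counts (log2 fold change -1.71, adjusted p = 0.00853, and -1.51 with 0.143 without parental replicate 1). Of 37 KRAB zinc finger genes of chromosome 19, 3 (8.11%) were called higher and 0 lower. ZNF154 among them had 236 and 250 counts, against 84 and 82 counts (log2 fold change 1.23, adjusted p = 0.000136). Of 10 HOX genes, HOXD9 (23 and 18 counts, against 3 and 2) and HOXD4 (22 and 19 counts, against 1 and 4) were called higher (20%). Their log2 fold changes of 2.68 and 2.65 were 2.82 and 1.86 without parental replicate 1, where neither was called. Both lie on chromosome 2, where 6.44% of tested genes were called higher. Of 14 mesenchymal regulators, TEAD1 was at -0.55 (adjusted p = 0.00016, and 0.0507 without SMARCA4-mAID replicate 2) and SOX9 at -1.26 (adjusted p = 0.033, and 0.324 without SMARCA4-mAID replicate 2). In the remaining lists the calls were the Notch ligand JAG1 (-3.15, 3 and 5 counts against 13 and 43, adjusted p = 0.00398, and -1.83 with 0.433 without parental replicate 2), the let-7 inhibitor LIN28B on chromosome 6 (-0.58, adjusted p = 0.000713, and 0.106 without SMARCA4-mAID replicate 2), the interferon-stimulated IFIT5 (0.55, adjusted p = 0.0381, and 0.353 without parental replicate 1), the cullin CUL1 (0.63, adjusted p = 0.0286, and 0.284 without parental replicate 1) and the remodelling ATPase CHD3 (0.72, adjusted p = 0.049, and 0.282 without SMARCA4-mAID replicate 2).

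Genes that respond to SMARCA4 inhibition in the other lines were also described here. BRM014 against DMSO changed 1485 genes in KELLY (11.6% of those tested, as 6.57% that rose and 4.98% that fell) and 2498 in SK-N-DZ (19.4%, as 9.88% that rose and 9.55% that fell), in libraries that the comparison of the engineered line does not use. Of 344 tested genes that fell in both, 26 (7.56%) were called higher and 29 (8.43%) lower in the engineered line, with a median of 0.02. Of 450 that rose in both, 30 (6.67%) were called higher and 67 (14.9%) lower, with a median of -0.11. Over all tested genes the shares were 2.67% higher and 3.49% lower, and both lists exceeded them in both directions. The genes of both lists had already been called in KELLY and SK-N-DZ by the same fit. They may therefore be easier to call, and all tested genes are not a like background. The 67 include genes of chromosome 6, among them ARID1B, BICRAL, ID4 and POU3F2. On that chromosome 23.6% of all tested genes were called lower. The lists were not split by chromosome, and the cause of these shares was not tested.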

How the data were processed

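Each deposited file holds whole-number counts per gene symbol, made by the authors before deposit. Per the submitters' processing notes, HISAT, HTSeq, DESeq2 and the build hg38 were used, with no roles or versions stated. How reads were selected for counting, on which annotation and with which strandedness, could not be read from the labels or file headers, so overlapping, antisense and near-identical genes are uncertain. Reads without a gene (47.6% to 53.5% in the 4 libraries compared) stayed out of library sizes.

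The 16 labelled libraries, in 8 groups of 2 taken from the labels, entered a group-means model in edgeR 4.0.16 (R 4.3.3) with TMM scaling, filterByExpr and the quasi-likelihood test, with 8 residual degrees of freedom and a biological coefficient of variation of 0.143. Calls required a Benjamini-Hochberg adjusted p below 0.05 over the 12853 genes tested. Fold changes are relative within a library, so a change common to every gene would not show. Positions are from GENCODE 29, matched by symbol for 12506 genes (97.3%). The text names the 15 highest and 15 lowest called genes without overlap and with a mean count of 50 or more, genes with at most 3 counts in one group against a mean of 50 in the other, fixed genes, up to 4 members of each list and the 10 neighbours of SMARCA4; the ranking excluded unnamed, antisense and small RNAs. Some genes are not reported here. Further low-count and list genes were chosen after their values were seen. The members and lists were chosen with earlier results of these data known. Replicates differed by more than sampling noise (chi-square per degree of freedom 2.64 in SMARCA4-mAID cells with ethanol and 2.42 in parental cells with DMSO). Alternatives were median-of-ratios scaling, no filter, DESeq2 1.42.0, a replicate block, fewer libraries and leaving out each library. A GC and length offset, leaving out chromosome 6, the bins and runs, and the test of the difference between the comparisons were chosen after seeing the data.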

Additional observations from a re-analysis of the deposited data

Results flagged for a closer look

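The difference between the lines was itself compared between conditions, as the log2 fold change of SMARCA4-mAID cells with auxin over parental cells with BRM014 minus that of SMARCA4-mAID cells with ethanol over parental cells with DMSO. Of all genes tested, 250 (1.95%) passed this test in edgeR, and those named here were among them. Auxin removes the tagged SMARCA4 protein and BRM014 inhibits both SMARCA4 and SMARCA2, so agent, vehicle and line cannot be told apart in these values.

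RGS4 differed by 3.19 (adjusted p = 6.38e-12), with 31 and 62 counts with auxin against 55 and 25 with BRM014, where the vehicle libraries had 14 and 9 counts in SMARCA4-mAID cells against 166 and 142 in parental cells. LRRN3 differed by 1.83 (adjusted p = 3.56e-06), with 82 and 84 counts with auxin against 63 and 86 with BRM014. After scaling for depth, auxin over BRM014 was -0.84 for RGS4 and -0.89 for LRRN3, against -4.04 and -2.72 for ethanol over DMSO. NXPH1 differed by -5.70 (adjusted p = 0.0207), a fitted value that depends on the 0 counts in both auxin libraries, against 34 and 54 with BRM014. TBX3 differed by 0.90 (adjusted p = 0.0474) and ISL1 by 0.67 (adjusted p = 0.0186). TBX2 differed by 1.04 (adjusted p = 4.85e-05), with a log2 fold change of 0.66 for auxin over BRM014 and -0.38 for ethanol over DMSO. MYCN differed by 0.60 (adjusted p = 1.22e-06), with 0.81 against 0.20. PHOX2A differed by 0.63 (adjusted p = 0.0267).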

How the results depend on the processing

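The 792 calls of the SMARCA4-mAID comparison became 789 with median-of-ratios scaling, 730 without the filter, 781 with DESeq2, 753 with the GC and length offset, 914 with the 8 IMR-32 libraries, 1141 with the 4 libraries alone and 601 without chromosome 6, and 372 to 485 without 1 library. No called gene changed sign under any of these. Auxin against BRM014 gave 1070 to 1194 calls without 1 library, against 1756. The chromosome 6 median of -0.53 was -0.42 without the filter and -0.57 to -0.52 without 1 library, and the cause of the shift was not tested. Replicate numbers did not pair the samples (correlation of deviations -0.0106 between the SMARCA4-mAID and parental vehicle libraries), and a replicate block gave 811 calls, 787 of them shared. Of the named and listed genes, 164 to 188 kept their call or lack of one without 1 library and 69 to 92 lost it. In fits without 1 library the lone library is assumed to vary like the other groups, and tests of low-count genes are limited by depth.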
